A study of Mus musculus with 15 samples.

Results

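Cytochrome P450 genes of families 1 to 4, which hold the enzymes that oxidise drugs and other foreign compounds as well as many fatty acids and steroids, were followed in ribosome profiling counts of mouse liver. The members were every RefSeq transcript whose mouse gene symbol is Cyp, a family digit from 1 to 4, a subfamily letter and a number. Of the 28167 transcripts counted, 84 matched, and they belonged to 74 genes. The transcript with the highest mean count stood for each gene. With 10 or more counts on average over the libraries, 55 of the 74 genes were tested for rhythms, within a fit of 17299 transcripts, and the other 19 are given below by their counts. Genes with a symbol of another form did not match and are no members, among them Cyp4a12a and Cyp4a12b, with CDS densities of 32.5 ± 7.60 and 11.9 ± 2.80 (CDS CPM per kilobase, SD, n = 14). Of the 5 such genes in the counts, 2 were abundant enough for the fit and 0 of these passed the rhythm threshold.

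The livers came from wild-type C57BL/6N male mice, 8 to 10 weeks old, that had been held in a cycle of 12 h light and 12 h dark for 2 weeks and then moved to constant darkness. From 24 h after the move, 2 mice were killed every 4 h from circadian time CT0 to CT24, so there were 14 libraries in 7 groups of 2. All groups shared strain, sex, lighting and tissue, and differed in circadian time alone. Whole liver was lysed with cycloheximide, digested with RNase I, and fragments of 26 to 34 nt that ribosomes had protected were sequenced, so each count is a footprint of a ribosome on an mRNA and not a measure of the mRNA itself. The samples of the last group carry CT24 in their names and CT00 in another label field, and the name was used.

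P450 enzymes sit in the membrane of the endoplasmic reticulum and carry a heme whose iron is held by a cysteine of the protein. Electrons reach the heme from cytochrome P450 oxidoreductase (Por), for some reactions helped by cytochrome b5, and an oxygen atom is put into the substrate. In liver the genes are known for induction by foreign compounds through receptors that bind them: the aryl hydrocarbon receptor (AhR) acts on Cyp1 genes, the constitutive androstane receptor (CAR) and the pregnane X receptor (PXR) on Cyp2b, Cyp2c and Cyp3a genes, and PPARalpha, a receptor for fatty acids, on Cyp4a genes.

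The coding sequence (CDS) of each P450 has a short stretch for the loop around that cysteine, and it is shown because it identifies a gene as a member of this superfamily and shows how alike the subfamilies are. A stretch of 30 nt with the pattern of this loop was found in 72 of the 74 members (RefSeq, GRCm38.p6). It was not found in Cyp2s1 and in Cyp3a59, which passed the rhythm threshold. It is printed for the other 10 members past that threshold and for Cyp3a11 and Cyp1a2, the most abundant genes of families 3 and 1, 5′ to 3′ on the strand of the gene, with the codon of the cysteine in capitals.
Cyp2a4: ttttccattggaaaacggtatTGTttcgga
Cyp2a5: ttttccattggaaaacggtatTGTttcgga
Cyp2b10: ttctcaacaggaaagcgcattTGTcttggt
Cyp2c37: ttctcaacagggaaacggataTGTgcagga
Cyp2e1: ttttctgcaggaaagcgcgtgTGTgttgga
Cyp2u1: tttgggatagggaagcgggtgTGTatggga
Cyp3a11: tttgggaatggacccaggaacTGCcttggc
Cyp4a10: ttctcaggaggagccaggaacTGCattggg
Cyp4a14: ttctcaggaggatcaaggaacTGCattggg
Cyp4f14: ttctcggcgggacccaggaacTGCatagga
Cyp4f17: ttttctgctgggcctaggaacTGCatagga
Cyp1a2: ttcggcttgggaaagcgccggTGCattggg

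The stretches of Cyp2a4 and Cyp2a5 were identical, base for base. Those of family 2 had TGT for the cysteine in the genes printed, and those of families 1, 3 and 4 had TGC. This did not hold for all members: Cyp2a12, Cyp2c55 and Cyp2d9, among others, had TGC, and Cyp4v3 had TGT. The Cyp2e1 stretch runs over the junction of exons 8 and 9 at chr7:140773762-140774577 on the plus strand (an interval that includes the intron), the Cyp4a10 stretch begins in exon 11 at chr4:115529502-115532543 on the plus strand, and the Cyp3a11 stretch lies within exon 12 at chr5:145858805-145858834 on the minus strand.

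Many members are near-identical copies, and this bears on every count below. Of all windows of 30 nt in a CDS, about the length of a footprint, the share that also occurs in another gene was over 50% in 17 members, all of them among the 55 tested, and 0 in 14 members, 10 of them tested. Cyp2e1, Cyp2f2, Cyp2u1, Cyp2c23, Cyp2c70 and Cyp4v3 shared no window. The share was 89.9% in Cyp2c40, 60.1% in Cyp4a10, 59.1% in Cyp2a5, 56.9% in Cyp3a59 and 52.0% in Cyp2c37.

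Cyp2a4 and Cyp2a5 are the closest such pair among the rhythmic members. Both coding sequences are 1485 nt long, and they differ at 23 bases (98.5% identity), with 58.9% of windows in common and a longest identical run of 216 nt. A stretch of 75 nt of each, positions 595 to 669 of the CDS across the junction of exons 4 and 5, is printed as the part by which a footprint could be told apart, with the 5 differing bases in capitals. It lies at chr7:26309029-26310720 in Cyp2a4 and at chr7:26837192-26838882 in Cyp2a5, both on the plus strand of GRCm38.p6.
Cyp2a4: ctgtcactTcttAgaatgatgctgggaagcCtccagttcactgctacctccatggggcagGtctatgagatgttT
Cyp2a5: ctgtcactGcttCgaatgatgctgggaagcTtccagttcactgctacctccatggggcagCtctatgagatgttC

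The bases upstream of the 2 genes are as alike. Stretches of 249 bases just before the start of Cyp2a4, at chr7:26306943-26307191, and of Cyp2a5, at chr7:26835089-26835337, both on the plus strand (RefSeq promoters, GRCm38.p6), differ at 4 bases, which are in capitals. They are shown because the 2 genes rose and fell at neighbouring times of day, as described below.
Cyp2a4 promoter: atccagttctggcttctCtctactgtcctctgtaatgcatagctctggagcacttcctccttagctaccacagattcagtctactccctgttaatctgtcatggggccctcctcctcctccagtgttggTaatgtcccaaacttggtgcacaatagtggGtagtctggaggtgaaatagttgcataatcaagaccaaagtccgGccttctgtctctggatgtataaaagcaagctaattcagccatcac
Cyp2a5 promoter: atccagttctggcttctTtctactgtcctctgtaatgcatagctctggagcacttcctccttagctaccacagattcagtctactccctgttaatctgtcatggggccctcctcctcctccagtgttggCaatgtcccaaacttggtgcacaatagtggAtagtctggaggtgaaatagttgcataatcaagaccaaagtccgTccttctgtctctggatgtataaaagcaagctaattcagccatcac

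Promoters of 62 members, 7 of them past the rhythm threshold, were searched on both strands in the 250 bases before the start. The TATA box letters TATAAA were in 24 of the 62 and in 12.4% of all 32851 promoters, and of the rhythmic members Cyp2a4, Cyp2a5 and Cyp2e1 had them. The letters TTGCNNAA, a core that C/EBP factors are known to bind, were in 14 members against 9.56% of all promoters, and in 5 of the 7 rhythmic ones, Cyp2a4, Cyp2a5, Cyp2b10, Cyp2c37 and Cyp4f14. TTANGTAA, the letters of the D-box that Dbp, Tef and Hlf bind, were in 1 member against 2.06% of all promoters, and CACGTG, the E-box, in 2 members against 6.02%. TTGCNNAA and TTANGTAA can overlap each other, and a match of letters in a window is not a site of binding. Members were counted as genes with a match in any of their promoters, whereas the share of all is per promoter. The near-identical Cyp2a4 and Cyp2a5 count as separate matches. Cyp4a10, Cyp4a14 and Cyp2u1, also rhythmic, had no promoter in the set searched.

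Counts of some close copies were far apart, so reads common to these pairs were not counted in full for both genes. Cyp2a4 had a mean of 78.9 counts per library and Cyp2a5 9359. Cyp2a22 had 20.4 against 8218 in Cyp2a12, with 46.5% of windows shared. Cyp3a44 had 19.4 against 56853 in Cyp3a11, with 27.9% shared, and Cyp2d11 had 20.3 against 12895 in Cyp2d10, with 41.1% shared. Other close copies had like counts: Cyp2c40 and Cyp2c69, with 62.4% of windows shared, had means of 105 and 128, and Cyp2c67 and Cyp2c68, with 45.2% shared, had 2529 and 2342. Of 238 pairs within a subfamily, 0 had equal counts in all libraries. By the methods of the study, footprint profiles were made from reads that aligned to 1 place in the genome, so that reads common to copies were left out, but the methods do not name the count tables used here. Where such reads were left out, the level of a gene with many shared windows is too low by an amount that was not measured, and the plot of shared windows against counts shows which genes these are.

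**Figure D1:**
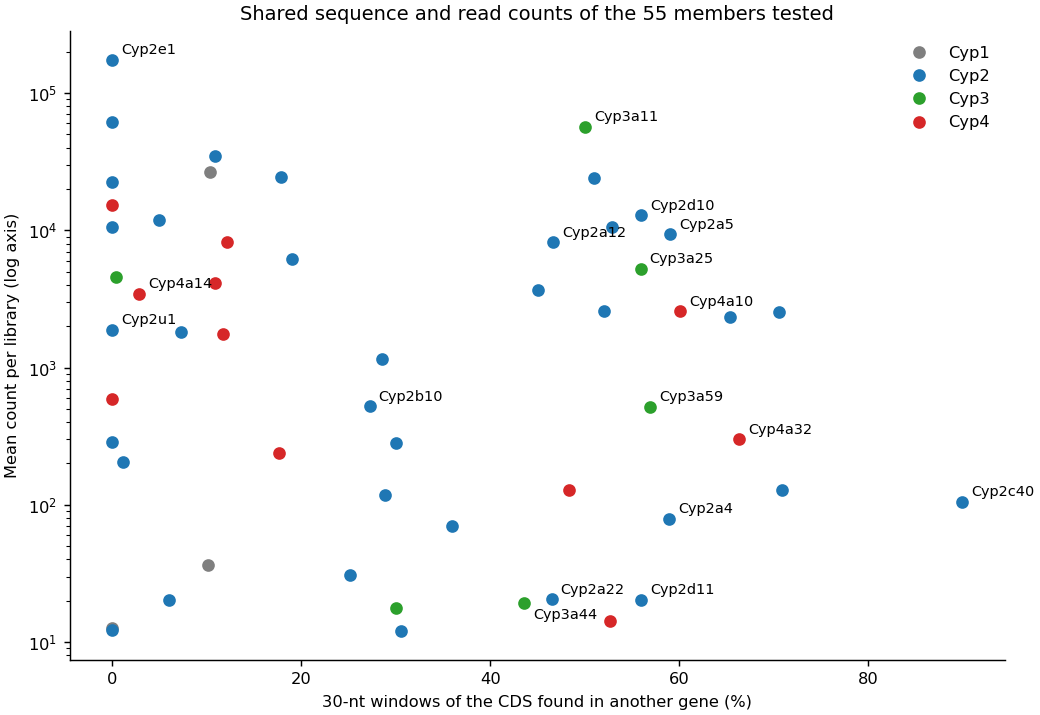
Each point is 1 of the 55 members tested, with the share of its 30-nt CDS windows that also occur in another gene (x axis, %) and its mean count per library (y axis, log scale), coloured by family. Cyp2e1 lies at 0% with the highest mean count of 174544, and copies such as Cyp2a4 and Cyp2a5 lie at nearly the same share with mean counts of 78.9 and 9359.

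The libraries held 40593197 to 90458783 counts, of which the members took 0.655% to 1.09% in 13 libraries and 1.56% in CT16 replicate 1. Factors from TMM, a scaling that assumes most genes unchanged, ran from 0.736 to 1.46. In CT16 replicate 2 every count was an even number. Hepatocyte markers were present in all libraries, with a summed density from 22747 in CT16 replicate 2 to 31024 in CT16 replicate 1. Markers of lung club cells were at 0, 2 of 4 of kidney were at 0 and their sum reached at most 0.0348, and of 4 for small intestine Fabp2, which liver also expresses, was the one abundant enough to be tested. Kupffer, endothelial and stellate cell markers summed to at most 78.3, 38.3 and 20.8, cholangiocyte markers to 9.65 and 2 erythroid markers to 31.1. The 4 markers of pancreatic acinar cells summed to 2529 in CT20 replicate 2, against 0.160 to 52.2 in the other 13 libraries, and all 4 passed the cosine fit used below. Results are therefore also given without CT16 replicate 1 and without CT20 replicate 2 where these matter.

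Levels were compared per length, as CDS CPM per kilobase of CDS, where CPM is the read count normalised to library size with TMM. Cyp2e1, which oxidises ethanol and acetaminophen, had the highest density, 1891 ± 518 (SD, n = 14). Cyp2f2, known for naphthalene oxidation, followed at 662 ± 72.2, then Cyp3a11, the main drug-oxidising enzyme of its subfamily, at 579 ± 125 and Cyp2c29 at 388 ± 70.7. Cyp1a2, which oxidises caffeine, had 284 ± 35.6, and Cyp2d9, a male-biased steroid hydroxylase, Cyp2d26 and Cyp2c70, an enzyme of muricholic acid synthesis, had 256 ± 24.6, 256 ± 27.2 and 255 ± 48.1. Cyp1a2, Cyp2d9, Cyp2d26 and Cyp2c70 differed from each other by less than the SD of Cyp1a2, whereas Cyp2e1 and Cyp2f2 did not overlap in any library. Cyp3a11 and Cyp2d9 share 50.1% and 50.9% of their windows with other genes and Cyp2f2 shares none, so their levels may be too low next to it. The 8 genes named here held 76.1% of the summed density of all members. In whole liver, fewer cells of a type and less RNA per cell cannot be told apart.

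Summed by subfamily, the single gene of Cyp2e had a density of 1891 ± 518, the 15 genes of Cyp2c 1010.4 ± 129 and the 8 of Cyp2d 729 ± 54.8 (SD, n = 14). The 7 genes of Cyp3a had 689 ± 135, the single gene of Cyp2f 662 ± 72.2 and the 2 of Cyp1a 284 ± 35.8 (SD, n = 14). Cyp2a, Cyp4v, Cyp2j and Cyp4f had 195, 149, 145 and 145, Cyp4a had 69.6, and Cyp2b had 7.23. A single gene made up most of several sums: Cyp1a2 held 99.9% of the CPM of Cyp1a, Cyp2j5 86.6% of Cyp2j, Cyp3a11 84.8% of Cyp3a and Cyp2b10 81.2% of Cyp2b. The spread over the 14 libraries differed between subfamilies: as a percent of the mean, the SD was 7.36 in Cyp2d, 10.3 in Cyp4f and 12.7 in Cyp2c, against 36.3 in Cyp2a, 66.5 in Cyp4a and 131 in Cyp2b. Without CT16 replicate 1, an alternative chosen after seeing the data, that of Cyp2b was 72.6.

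**Figure D2:**
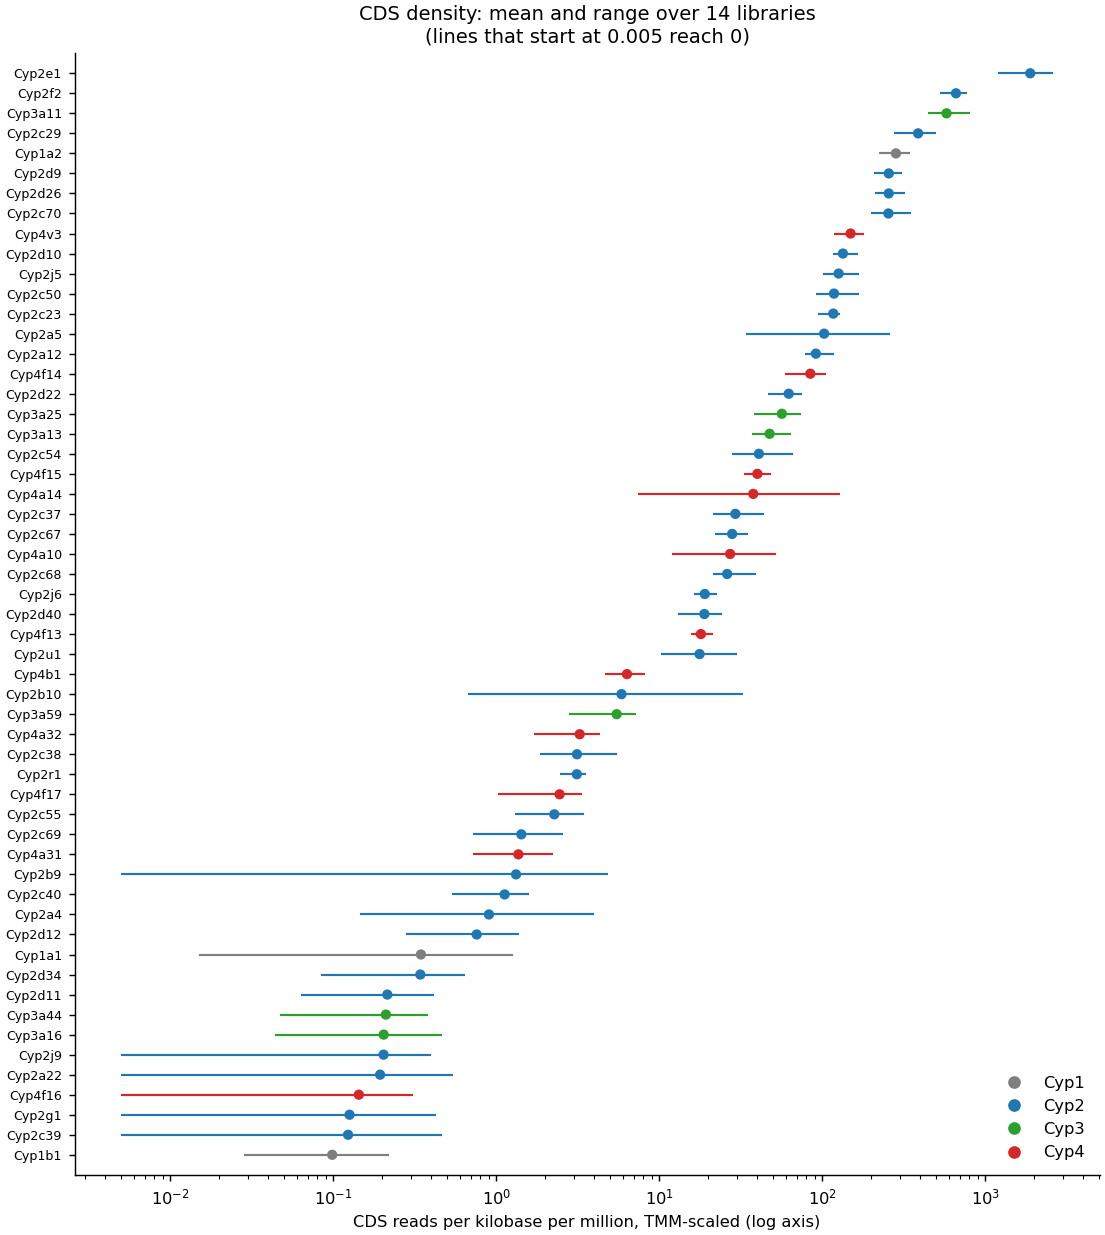
Points give the mean CDS density of each of the 55 members tested (x axis, CPM per kilobase, log scale) and lines the range over 14 libraries, coloured by family. Cyp2e1 stands highest at 1891, and the longest lines among abundant genes belong to Cyp2a5, Cyp4a14, Cyp4a10 and Cyp2b10.

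The first comparison asked which members followed a rhythm of 24 h, by a fit of cosine and sine terms to circadian time. At an adjusted p under 0.05, 11 of the 55 members passed, against 11.3% of all 17299 transcripts (1947). The rhythmic members were Cyp2a4, Cyp2a5, Cyp2b10, Cyp2c37, Cyp2e1, Cyp2u1, Cyp3a59, Cyp4a10, Cyp4a14, Cyp4f14 and Cyp4f17. Of these 11, 9 had phases between CT11 and CT24, while Cyp2u1 peaked at CT5.55 and Cyp4f17 near CT0. The median log2 span from trough to peak was 0.41 over the 55 members and 0.44 over all transcripts tested, and it exceeded 1 in 12 members and in 13.9% of all. Among the rhythmic ones the medians were 0.96 and 0.96. The p-values of this fit rest on 14 libraries with 2 mice per time point. They measure the spread of these libraries around the fitted cosine. That spread holds differences between the mice as well as departures of a course from a cosine.

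The number of rhythmic members, and its distance from the share of all transcripts, depended on the libraries used. It was 10 without CT16 replicate 1 and 8 without CT20 replicate 2, and over all 14 fits that left out 1 library it ran from 5 to 14. Of all transcripts, 10.9% and 10.7% passed in those first 2 fits. The lowest count, 5 of 55 or 9.09%, came without CT4 replicate 2 or without CT8 replicate 2, where 9.52% and 9.44% of all transcripts passed, so the share of members was then close to that of all. Cyp2a4, Cyp2a5, Cyp2e1, Cyp2u1 and Cyp3a59 passed in each of those 14 fits. The other 6 lost the call in at least 3 of them, as given with each gene.

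**Figure D3:**
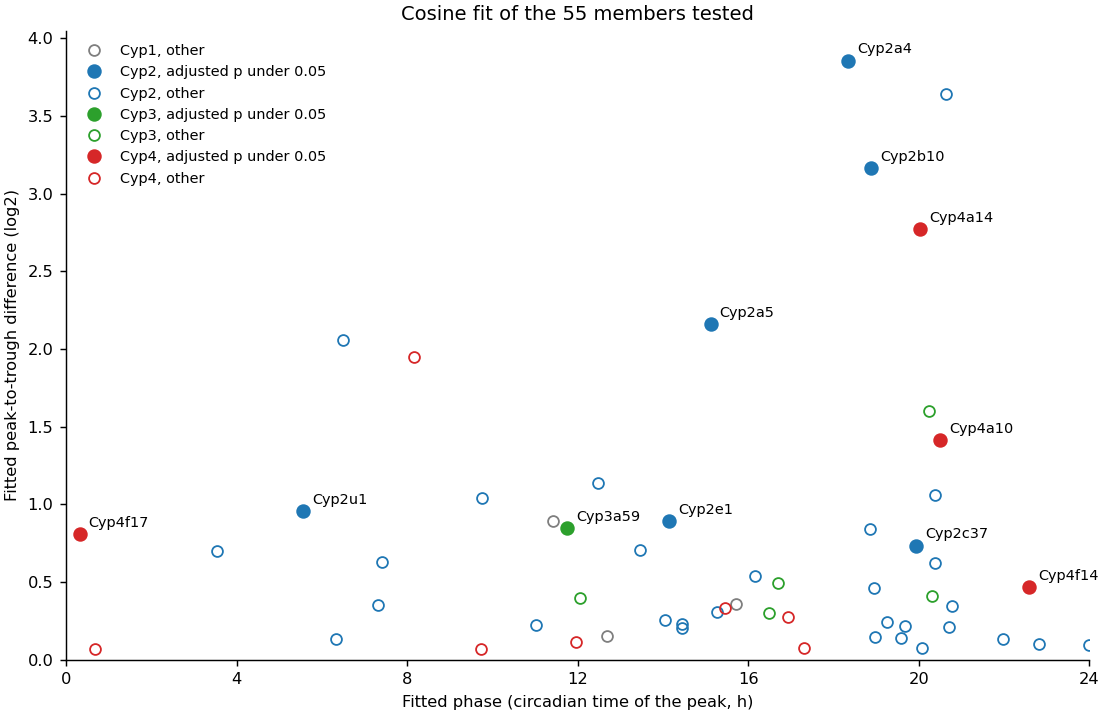
Each point is 1 of the 55 members, by the circadian time of its fitted peak (x axis, h) and its fitted peak-to-trough difference (y axis, log2), with filled points for the 11 members at an adjusted p under 0.05 and colours for families. Most filled points lie between CT11 and CT23, and Cyp2a4 has the largest difference, 3.85.

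The Cyp2a subfamily held the member with the smallest p. Cyp2a5 hydroxylates coumarin and nicotine and is counted among the targets of CAR. Cyp2a5 gave 85.4 and 77.4 CPM at CT0, 51.1 and 52.3 at CT4, 161 and 127 at CT8, 196 and 214 at CT12, 390.0 and 269.7 at CT16, 124 and 191 at CT20 and 86.3 and 133 at CT24 in replicates 1 and 2. Both mice at CT16 lay above every other library and both at CT4 below every other, so the levels went from 329.9 ± 85.1 CPM at CT16 (SD, n = 2) to 51.7 ± 0.832 at CT4. For Cyp2a5 the fit gave a phase of 15.1 h (SE 0.508), a log2 span of 2.16 from trough to peak (SE 0.29), or 4.47-fold, and an adjusted p of 2.52e-05. Over the fits without 1 library the adjusted p was 8.98e-06 to 0.000190, and without CT16 replicate 1 it was 0.000190.

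Cyp2a4 encodes a steroid hydroxylase that is known as female-biased in liver and was scarce in these males. Cyp2a4 gave 1.42 and 1.29 CPM at CT0, 0.217 and 0.228 at CT4, 0.363 and 0.285 at CT8, 0.691 and 0.696 at CT12, 5.99 and 1.83 at CT16, 2.03 and 1.37 at CT20 and 0.489 and 2.09 at CT24. The 2 libraries of CT4 were the lowest, at 14 and 12 counts, and CT16 replicate 1, at 370.0 counts, was the highest, while its partner lay within the range of CT20 and CT24. For Cyp2a4 the fit gave a phase of 18.3 h (SE 0.576), a log2 span of 3.85 from trough to peak (SE 0.61), or 14.5-fold, and an adjusted p of 0.000631. Without CT16 replicate 1 the adjusted p was 0.00336. The 2 mice at CT24 were far apart, at 0.489 and 2.09 CPM.

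The fitted peak of Cyp2a4 came 18.3 h into the cycle and that of Cyp2a5 15.1 h, and the difference between them was not tested. As a percent of the Cyp2a5 count, the Cyp2a4 count was 1.66 and 1.66 at CT0, 0.425 and 0.435 at CT4, 0.225 and 0.224 at CT8, 0.353 and 0.326 at CT12, 1.54 and 0.679 at CT16, 1.64 and 0.716 at CT20 and 0.567 and 1.57 at CT24. The share was thus lowest at CT8 in both mice and not constant over the day. Cyp2a12 and Cyp2a22, the other pair of the subfamily, ran over 117 to 176 CPM and 0 to 0.810 CPM and had adjusted p-values of 0.528 and 0.763.

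Cyp2e1 carried more footprints than any other member. Cyp2e1 gave 1817 and 2238 CPM at CT0, 2133 and 1903 at CT4, 3332 and 2579.9 at CT8, 3932 and 3585 at CT12, 3929.7 and 3813 at CT16, 2188 and 3273 at CT20 and 2302 and 2999 at CT24. All 4 libraries of CT12 and CT16 lay above the other 10, and levels went from 3872 ± 82.2 CPM at CT16 (SD, n = 2) to 2018 ± 163 at CT4, 1.92-fold. For Cyp2e1 the fit gave a phase of 14.1 h (SE 0.776), a log2 span of 0.89 from trough to peak (SE 0.17), or 1.86-fold, and an adjusted p of 0.00260. Scaled by the total count in place of TMM, the adjusted p was 0.0931, and over the fits without 1 library it was 0.000409 to 0.00808. Cyp2e1 is a gene of pericentral hepatocytes. Of 3 other pericentral markers, Slc1a2 was rhythmic with a phase of 14.1 h (adjusted p = 0.00155), Glul and Oat had adjusted p-values of 0.246 and 0.347, and none of them was at 0. Their summed density ran from 278 to 418 over the libraries and was 368 and 407 at CT16, and their part in the course of Cyp2e1 was not tested.

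Cyp2b10 is the classic target of CAR. Cyp2b10 gave 8.08 and 5.95 CPM at CT0, 5.15 and 3.47 at CT4, 2.41 and 1.49 at CT8, 4.17 and 0.991 at CT12, 48.8 and 6.89 at CT16, 3.08 and 10.9 at CT20 and 7.42 and 13.3 at CT24. CT16 replicate 1 stood far above all other libraries and the next was CT24 replicate 2, whereas CT12 replicate 2 was the lowest. For Cyp2b10 the fit gave a phase of 18.9 h (SE 1.35), a log2 span of 3.16 from trough to peak (SE 0.94), or 8.96-fold, and an adjusted p of 0.0311. Without CT16 replicate 1 the adjusted p was 0.0105, and it was 0.0549 to 0.0884 without CT4 replicate 2 or CT8 replicate 1 or 2. Without the 1 high library the call held, but the fitted phase moved from 18.9 to 21.4 h.

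Cyp2b9, a female-biased gene, gave 1.96 and 2.75 CPM at CT0, 2.70 and 0.209 at CT4, 0.263 and 0.142 at CT8, 0.407 and 0.191 at CT12, 7.23 and 1.59 at CT16, 0 and 1.94 at CT20 and 1.83 and 6.32 at CT24. It was highest in CT16 replicate 1, as was Cyp2b10, and in CT24 replicate 2 it came close to that value. Its adjusted p was 0.167. Cyp2b13, Cyp2b19 and Cyp2b23 stayed under the minimum, with 38, 0 and 7 counts over all 14 libraries.

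The Cyp2c subfamily, whose enzymes oxidise drugs and arachidonic acid, had 13 of 15 genes tested and 1 past the threshold. Cyp2c37 gave 34.3 and 45.8 CPM at CT0, 32.9 and 39.8 at CT4, 33.7 and 32.3 at CT8, 39.97 and 31.9 at CT12, 55.2 and 47.1 at CT16, 38.4 and 62.2 at CT20 and 50.6 and 64.8 at CT24. Both mice at CT24 and CT20 replicate 2 were among the 4 highest, and CT12 replicate 2 was the lowest. For Cyp2c37 the fit gave a phase of 19.9 h (SE 1.14), a log2 span of 0.73 from trough to peak (SE 0.22), or 1.66-fold, and an adjusted p of 0.0462. This adjusted p was the highest but that of Cyp4f17 among the 11. It was 0.0589 to 0.118 without CT0 replicate 2, CT4 replicate 1 or 2, CT8 replicate 1 or 2, CT12 replicate 1 or 2, CT16 replicate 1 or 2, CT20 replicate 2 or CT24 replicate 1. It was also 0.0530 with upper quartile scaling, 0.0509 with CDS reads only and 0.0527 with 1 transcript per gene, and 52.0% of its windows occur in other genes, 38.1% in Cyp2c50.

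Cyp2c54 and Cyp2c50, close copies of it, had fitted peaks at CT20.4 and CT20.8 and adjusted p-values of 0.143 and 0.408. Cyp2c29 gave 473 and 561 CPM at CT0, 617 and 558 at CT4, 567 and 528 at CT8, 554 and 412 at CT12, 741 and 597 at CT16, 429 and 724 at CT20 and 597 and 743 at CT24. Cyp2c70 gave 355 and 298 CPM at CT0, 339.8 and 463 at CT4, 297 and 459 at CT8, 345 and 364 at CT12, 328 and 320.1 at CT16, 460.2 and 519 at CT20 and 329 and 404 at CT24. Neither of these abundant genes passed, with adjusted p-values of 0.740 and 0.880, and the 2 mice of CT20 were far apart in Cyp2c29. Cyp2c55 gave 2.65 and 1.95 CPM at CT0, 3.27 and 5.12 at CT4, 4.47 and 3.95 at CT8, 3.38 and 3.08 at CT12, 2.48 and 4.26 at CT16, 2.34 and 2.81 at CT20 and 3.02 and 4.49 at CT24. Cyp2c55, a target of CAR and PXR, thus ranged over 1.95 to 5.12 CPM without passing (adjusted p = 0.289).

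The remaining tested genes of Cyp2c fell in a group of close copies and a few others. Cyp2c67, Cyp2c68, Cyp2c69 and Cyp2c40 share 65.4% to 89.9% of their windows with other genes, had mean counts of 2529, 2342, 128 and 105, and had adjusted p-values of 0.331, 0.925, 0.455 and 0.816. Cyp2c23, which shares no window, ranged over 141 to 193 CPM (adjusted p = 0.280). Cyp2c38 ranged over 2.81 to 8.31 CPM with its highest value in CT16 replicate 1 (adjusted p = 0.170), and Cyp2c39 had a mean of 12.0 counts. Cyp2c65 and Cyp2c66 had 15 and 0 counts in all.

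In the Cyp2d subfamily all 8 genes were tested and 0 passed, with adjusted p-values of 0.292 to 0.939. Their summed level was the steadiest of the large subfamilies, from 1101 ± 75.9 CPM at CT0 to 1252 ± 122 at CT16 (SD, n = 2). Cyp2d9 gave 328 and 362 CPM at CT0, 395 and 419.9 at CT4, 489 and 381 at CT8, 398 and 443 at CT12, 411 and 426 at CT16, 392 and 399 at CT20 and 380.0 and 396 at CT24. Cyp2d26 gave 391 and 428 CPM at CT0, 391 and 404 at CT4, 416 and 344 at CT8, 361 and 368 at CT12, 508 and 421 at CT16, 382 and 437 at CT20 and 417 and 442 at CT24. The values of Cyp2d26 were highest in CT16 replicate 1, and those of Cyp2d9 in CT8 replicate 1. Cyp2d10, Cyp2d22 and Cyp2d40 also had their highest value in CT16 replicate 1, while Cyp2d11, Cyp2d12 and Cyp2d34 were scarce, at means of 20.3, 70.0 and 30.9 counts.

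Cyp2u1, which hydroxylates long-chain fatty acids, was the rhythmic member with its fitted peak in the middle of the subjective day. Cyp2u1 gave 30.7 and 32.6 CPM at CT0, 40.05 and 36.6 at CT4, 52.4 and 33.9 at CT8, 25.5 and 32.4 at CT12, 19.4 and 17.4 at CT16, 30.8 and 24.96 at CT20 and 27.1 and 27.7 at CT24. Both mice at CT16 were the lowest of all libraries, and CT8 replicate 1 was the highest, above its partner. For Cyp2u1 the fit gave a phase of 5.55 h (SE 0.729), a log2 span of 0.96 from trough to peak (SE 0.21), or 1.94-fold, and an adjusted p of 0.00709. Both replicate series gave nearly the same phase, 5.59 and 5.38 h. Over the fits without 1 library the adjusted p was 0.00126 to 0.0274, and it was 0.0789 without both libraries of CT16. The rank test JTK_CYCLE on TMM-scaled CPM gave a false discovery rate of 0.0776. Cyp2u1 shares no window with another gene.

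Of the other small Cyp2 subfamilies, 0 of the 6 genes tested passed. Cyp2f2 gave 811 and 901 CPM at CT0, 972 and 1123 at CT4, 963 and 1023 at CT8, 1017 and 1145 at CT12, 1182 and 1002 at CT16, 1199 and 1052 at CT20 and 899 and 1013 at CT24. The level of Cyp2f2 was thus within 811 to 1199 CPM, with an adjusted p of 0.434. Cyp2j5, which acts on arachidonic acid, ranged over 158 to 265 CPM and Cyp2j6 over 26.9 to 36.5 CPM, with adjusted p-values of 0.899 and 0.918. Cyp2r1, a vitamin D hydroxylase, ranged over 3.71 to 5.35 CPM (adjusted p = 0.888). Cyp2j9 and Cyp2g1 had means of 20.1 and 12.1 counts, and 1 or more libraries at 0.

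Cyp3a enzymes take a wide range of drugs as substrates, and 6 of the 7 genes were tested and 1 passed. Cyp3a59 gave 4.96 and 4.25 CPM at CT0, 7.49 and 10.3 at CT4, 10.7 and 8.70 at CT8, 11.5 and 10.7 at CT12, 10.4 and 9.08 at CT16, 7.08 and 9.55 at CT20 and 6.05 and 7.57 at CT24. Both mice at CT0 were below all others and both at CT12 were among the 3 highest. For Cyp3a59 the fit gave a phase of 11.8 h (SE 1.04), a log2 span of 0.85 from trough to peak (SE 0.22), or 1.80-fold, and an adjusted p of 0.0179. Over the fits without 1 library the adjusted p was 0.00713 to 0.0441, and with the total count as the scale it was 0.310. Without both libraries of CT0 or of CT12 it was 0.0891 and 0.0896. Its closest copy, Cyp3a25, with 49.9% of windows shared and a mean of 5252 counts against 516, had a fitted peak at CT12.1 and an adjusted p of 0.305.

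Cyp3a11 gave 794 and 759 CPM at CT0, 997 and 1078 at CT4, 815 and 803 at CT8, 724 and 812 at CT12, 1299.6 and 874 at CT16, 1001 and 1331 at CT20 and 908 and 1215 at CT24. Cyp3a11, a main target of PXR, was thus highest in CT20 replicate 2 and CT16 replicate 1, each well above its partner, and its adjusted p was 0.342. Cyp3a13 ranged over 58.9 to 101.31 CPM and had an adjusted p of 0.165. Cyp3a16 and Cyp3a44, known as female-biased or fetal forms, had means of 17.8 and 19.4 counts and adjusted p-values of 0.384 and 0.952, and Cyp3a57 stayed under the minimum with a mean of 5.00 counts. Of the 4 listed targets of CAR and PXR (Cyp2b10, Cyp2c55, Cyp3a11 and Cyp2a5), 2 passed, Cyp2a5 and the less stable Cyp2b10, against 11.3% of all transcripts. Their summed density was highest in CT16 replicate 1, at 1099, against 717 in CT16 replicate 2.

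Cyp4a enzymes hydroxylate the end of fatty acids and are known targets of PPARalpha. Cyp4a14 gave 97.2 and 107 CPM at CT0, 40.9 and 23.9 at CT4, 17.4 and 11.4 at CT8, 21.1 and 26.9 at CT12, 199 and 37.9 at CT16, 23.3 and 61.1 at CT20 and 41.6 and 104 at CT24. Both mice at CT0 were among the 4 highest and both at CT8 were the lowest, and CT16 replicate 1 reached 199 against 37.9 in its partner. For Cyp4a14 the fit gave a phase of 20.0 h (SE 1.29), a log2 span of 2.77 from trough to peak (SE 0.75), or 6.82-fold, and an adjusted p of 0.0305. Without CT16 replicate 1 the adjusted p was 0.00316 and the phase moved to 22.1 h, and without CT0 replicate 2, CT4 replicate 2, CT8 replicate 1 or 2 or CT12 replicate 1 or 2 it was 0.0501 to 0.111. With DESeq2 the adjusted p was 0.0534, and the rank test JTK_CYCLE gave 0.372 and a phase of 23 h. Just 2.88% of its windows occur in another gene.

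Cyp4a10 gave 68.4 and 72.2 CPM at CT0, 34.3 and 27.4 at CT4, 26.3 and 19.7 at CT8, 19.4 and 36.7 at CT12, 82.0 and 41.2 at CT16, 33.2 and 43.4 at CT20 and 39.3 and 66.1 at CT24. The order of libraries was alike, with both mice at CT0 high, CT8 and CT12 replicate 1 low, and CT16 replicate 1 on top. For Cyp4a10 the fit gave a phase of 20.5 h (SE 1.19), a log2 span of 1.41 from trough to peak (SE 0.41), or 2.66-fold, and an adjusted p of 0.0302. Without CT16 replicate 1 its phase was 21.9 h and its adjusted p 0.0107, and JTK_CYCLE gave 22 h and 0.304. The adjusted p from the fit was 0.05 to 0.110 without CT0 replicate 1 or 2, CT4 replicate 1 or 2, CT8 replicate 1 or 2, CT12 replicate 1 or CT24 replicate 2. The 2 genes lie at chr4:115518287-115533649 (plus strand) and chr4:115486200-115496141 (minus strand) of GRCm38.p6.

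Of the 4 listed PPARalpha targets 2 thus passed, against 11.3% of all transcripts, and Cyp4a31 and Cyp4a32, close copies of Cyp4a10, did not. Cyp4a31 gave 3.14 and 2.32 CPM at CT0, 1.61 and 1.74 at CT4, 2.65 and 1.72 at CT8, 1.11 and 3.06 at CT12, 3.43 and 2.43 at CT16, 1.31 and 1.91 at CT20 and 1.49 and 2.01 at CT24. Cyp4a32 gave 5.43 and 5.61 CPM at CT0, 3.94 and 5.69 at CT4, 6.28 and 2.63 at CT8, 3.89 and 6.66 at CT12, 5.72 and 5.42 at CT16, 5.02 and 5.57 at CT20 and 3.87 and 4.47 at CT24. Their adjusted p-values were 0.804 and 0.766, although 34.3% and 52.3% of the Cyp4a10 windows occur in them. Cyp4a29 had 3 counts in all. Summed over the subfamily, the level went from 44.1 ± 12.1 CPM at CT8 to 189 ± 144 at CT16 (SD, n = 2), where the SD shows how far apart the mice of CT16 were.

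Cyp4f genes, which include hydroxylases of leukotrienes, had 5 of 9 tested and 2 past the threshold. Cyp4f14 gave 171 and 152 CPM at CT0, 147 and 134 at CT4, 131 and 103 at CT8, 127 and 97.2 at CT12, 143 and 139 at CT16, 130.2 and 153 at CT20 and 153 and 158 at CT24. Both mice at CT0 and CT24 were among the 5 highest and those at CT12 were among the lowest. For Cyp4f14 the fit gave a phase of 22.6 h (SE 0.968), a log2 span of 0.47 from trough to peak (SE 0.11), or 1.38-fold, and an adjusted p of 0.0375. Without CT0 replicate 1 or 2, CT4 replicate 1 or 2, CT8 replicate 2, CT12 replicate 2, CT20 replicate 2 or CT24 replicate 1 or 2 the adjusted p was 0.0520 to 0.147, and with the total count as the scale it was 0.0567.

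Cyp4f17 gave 5.33 and 5.79 CPM at CT0, 4.63 and 4.72 at CT4, 3.58 and 3.53 at CT8, 1.62 and 3.08 at CT12, 4.23 and 3.74 at CT16, 3.44 and 4.06 at CT20 and 4.10 and 4.77 at CT24. CT12 replicate 1 was the lowest and both mice at CT0 the highest. For Cyp4f17 the fit gave a phase of 0.314 h (SE 1.16), a log2 span of 0.81 from trough to peak (SE 0.23), or 1.75-fold, and an adjusted p of 0.0467, and without CT0 replicate 1 or 2, CT4 replicate 1 or 2, CT8 replicate 1 or 2, CT12 replicate 1 or 2, CT16 replicate 2, CT20 replicate 2 or CT24 replicate 2 the adjusted p was 0.0545 to 0.111. Cyp4f13 and Cyp4f15 ranged over 25.5 to 35.4 CPM and 56.7 to 82.0 CPM, with adjusted p-values of 0.925 and 0.937. Cyp4f16 had a mean of 14.3 counts. Cyp4v3, a fatty acid hydroxylase that shares no window with another gene, ranged over 205 to 305 CPM, and Cyp4b1 over 7.24 to 12.7 CPM, and neither passed (adjusted p = 0.833 and 0.952).

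**Figure D4:**
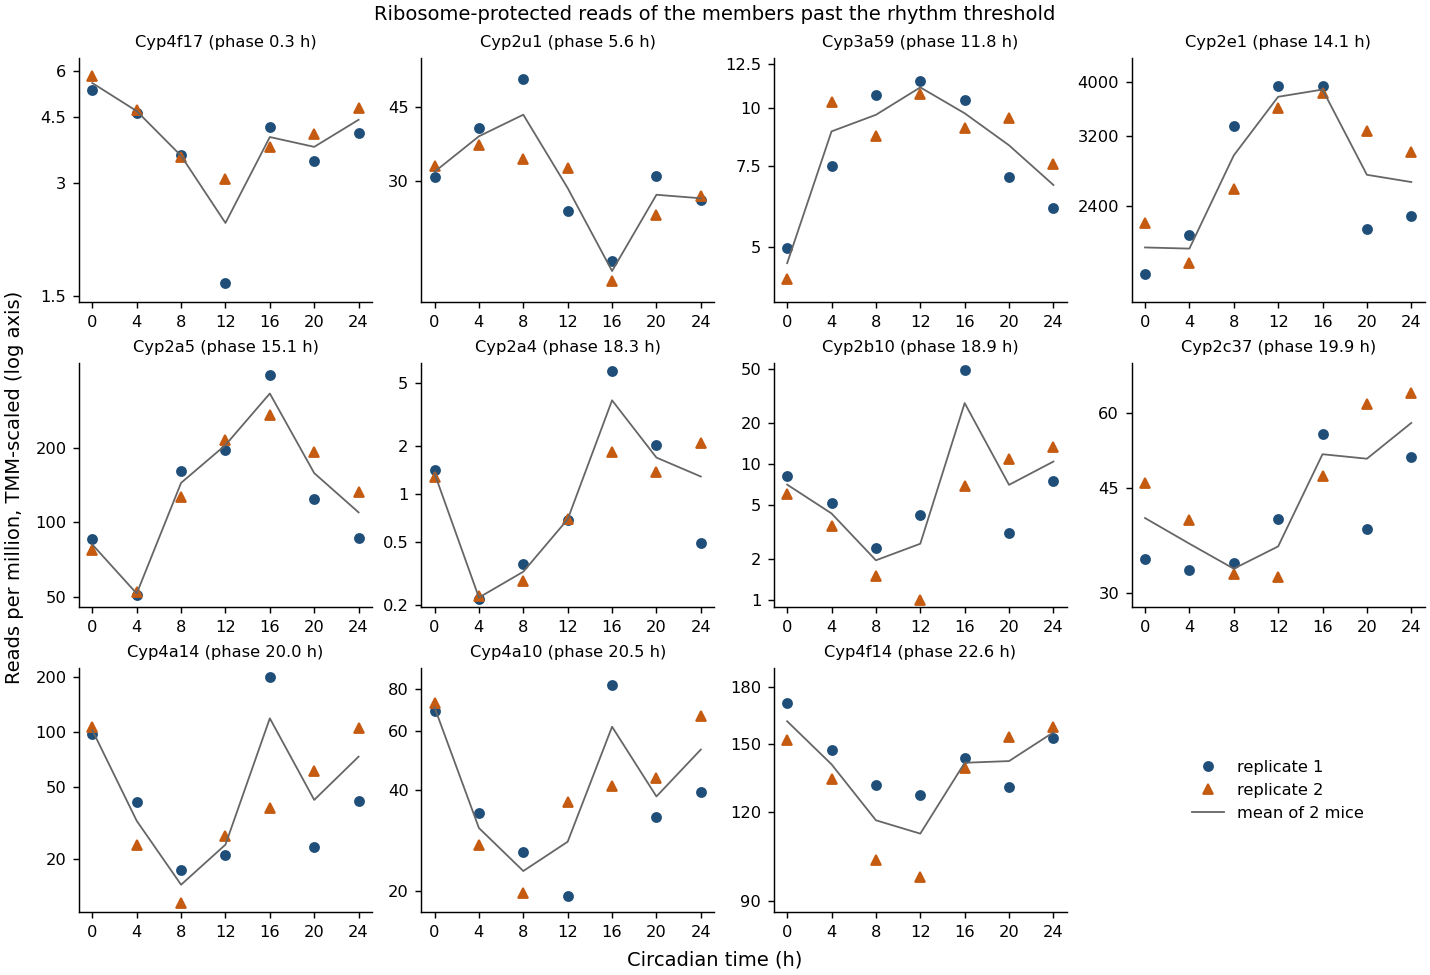
TMM-scaled CPM (y axes, log scale, a separate range for each gene) of the 11 members past the threshold against circadian time (x axis, h), with circles and triangles for the 2 mice of a time point and lines through their means, in order of phase. Cyp2a5 rises to 329.9 ± 85.1 at CT16, Cyp2u1 falls to 18.4 ± 1.39 there, and in Cyp2b10, Cyp2a4, Cyp4a14 and Cyp4a10 replicate 1 of CT16 lies far above replicate 2.

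Cyp1 genes are the targets of AhR, and 0 of the 3 passed, against 11.3% of all transcripts. Cyp1a2 gave 394 and 349 CPM at CT0, 435 and 370.1 at CT4, 537 and 421 at CT8, 476 and 443 at CT12, 466 and 436 at CT16, 378 and 507 at CT20 and 500.3 and 469.6 at CT24. Cyp1a1 gave 0.304 and 0.338 CPM at CT0, 0.0465 and 0.266 at CT4, 0.675 and 0.538 at CT8, 2.01 and 0.365 at CT12, 0.421 and 0.558 at CT16, 0.0239 and 0.334 at CT20 and 0.530 and 1.41 at CT24. Cyp1b1 gave 0.118 and 0.145 CPM at CT0, 0.124 and 0.152 at CT4, 0.150 and 0.190 at CT8, 0.358 and 0.244 at CT12, 0.113 and 0.279 at CT16, 0.0717 and 0.267 at CT20 and 0.265 and 0.422 at CT24. Cyp1a2 stayed within 349 to 537 CPM (adjusted p = 0.739). Cyp1a1, the most inducible gene of the family, was scarce, with 1 to 163 counts per library (adjusted p = 0.705), and its 2 mice at CT12 gave 2.01 and 0.365 CPM. Cyp1b1 had 3 to 29 counts (adjusted p = 0.944).

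The 19 genes under the minimum had means of 0 to 8.86 counts per library. Cyp2b19, Cyp2c66, Cyp2j11, Cyp2t4 and Cyp2w1 had 0 counts in all 14 libraries. By counting error this allows each gene an expected total of up to 3 counts over the 14 libraries together. Cyp2s1 and Cyp4f18 came closest to the minimum, at means of 8.86 and 8.21, and 12.6 for Cyp1b1, 12.1 for Cyp2g1 and 12.0 for Cyp2c39 were just above it. The others with any count were Cyp3a57, Cyp2b13, Cyp4f39, Cyp4f40, Cyp2c65, Cyp4f37, Cyp2b23, Cyp2j8, Cyp4x1, Cyp4a29, Cyp2j12 and Cyp2j13. Cyp2s1 is known from epithelia outside the liver. Its highest level was in CT0 replicate 1, 0.894 CPM (53 counts) against 0.273 in its partner. That library had the highest sum of cholangiocyte markers, 9.65, and also of Kupffer (78.3), endothelial (38.3) and stellate markers (20.8). Any relation of these sums to Cyp2s1 was not tested.

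All mice were males, and genes known as female-biased were read at low levels. The 9 listed female-biased genes in the counts (Cyp2b9, Cyp2b13, Cyp3a41b, Cyp3a44, Cyp3a16, Cyp2a4, Cyp2c69, Cyp2c40 and Cyp2c39) had a summed CDS density of 3.05 to 12.1 per library, against 256 ± 24.6 (SD, n = 14) for the male-biased Cyp2d9 alone. Of them 7 were tested and 1, Cyp2a4, was rhythmic, against 11.3% of all transcripts. The sum was highest in CT16 replicate 1 at 12.1, against 5.12 in CT16 replicate 2. Its largest parts in replicate 1 were Cyp2b9 and Cyp2a4, at 4.85 and 3.97, followed by Cyp2c40 and Cyp2c69 at 1.14 and 0.982. The 4 listed male-biased genes summed to 297 in CT16 replicate 1, within their range of 266 to 371, but Cyp2d9 made up 263 of it. Cyp4a12a and Cyp4a12b were at their lowest there, at densities of 15.4 and 7.61 against means of 32.5 and 11.9. Cyp2u1 was at 10.9 there, against a mean of 17.7. The relation of the female-biased sum, which holds Cyp2a4, to the high values of Cyp2b10, Cyp4a10 and Cyp4a14 in CT16 replicate 1 was not tested.

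Genes that supply the P450s with electrons and heme were followed from a list of 6, of which 3 were rhythmic, against 11.3% of all transcripts. Por gave 90.5 and 106 CPM at CT0, 59.4 and 73.7 at CT4, 129 and 123 at CT8, 308 and 277 at CT12, 397 and 268 at CT16, 148 and 142 at CT20 and 113 and 88.6 at CT24. Its fit gave a phase of 14.8 h (SE 0.352), a log2 span of 2.18 from trough to peak (SE 0.20), or 4.53-fold, and an adjusted p of 4.17e-07. Alas1, the rate-limiting enzyme of heme synthesis, gave 70.1 and 133 CPM at CT0, 68.5 and 92.0 at CT4, 89.4 and 118 at CT8, 742 and 728 at CT12, 774 and 613 at CT16, 286 and 168 at CT20 and 213 and 275 at CT24. It had a phase of 15.5 h (SE 0.678), a log2 span of 3.08 from trough to peak (SE 0.57), or 8.47-fold, and an adjusted p of 0.000290. Both were thus high at CT12 and CT16 in both mice, with peaks near those of Cyp2e1 and Cyp2a5 at CT14.1 and CT15.1. Cyb5b, the cytochrome b5 of the mitochondrial outer membrane, ran the other way, from 69.0 and 68.2 CPM at CT0 to 32.6 and 35.0 at CT12, and its fitted peak lay at 23.99 h (adjusted p = 1.83e-05). Cyb5a, the cytochrome b5 of the endoplasmic reticulum, its reductase Cyb5r3 and the heme-binding Pgrmc1 did not pass, with adjusted p-values of 0.582, 0.439 and 0.542. Per length, Por had a density of 79.9 ± 49.8 (SD, n = 14) and Cyp2e1 alone 1891 ± 518.

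**Figure D5:**
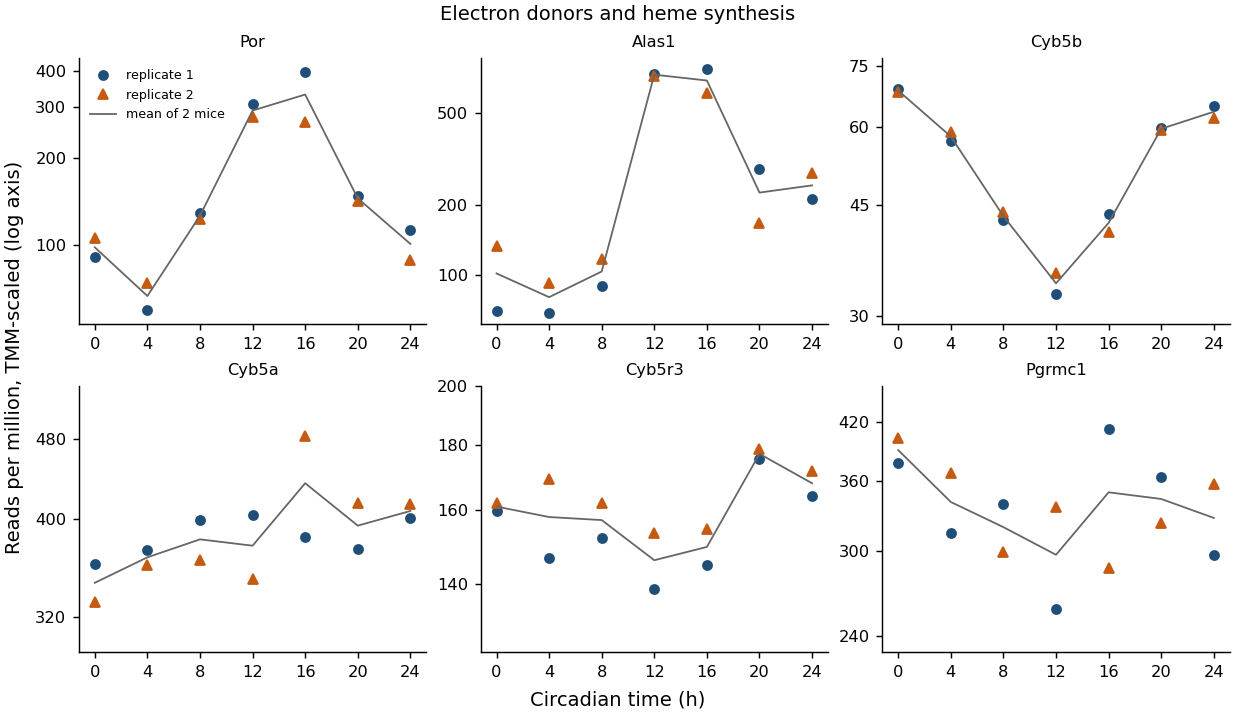
TMM-scaled CPM (y axes, log scale, a separate range for each gene) of Por, Alas1, Cyb5b, Cyb5a, Cyb5r3 and Pgrmc1 against circadian time (x axis, h), with circles and triangles for the 2 mice and lines through their means. Alas1 goes from 68.5 and 92.0 at CT4 to 742 and 728 at CT12, Cyb5b is lowest at CT12, and the lower row shows the 3 genes that did not pass.

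Of 14 receptors and transcription factors known to act on P450 genes that are reported here, 5 were rhythmic, against the same 11.3%. Ppara, the receptor for Cyp4a genes, peaked at CT11.1 with a log2 span of 0.82 (adjusted p = 0.00863). Cebpb peaked at CT13.2 (1.02, adjusted p = 0.0143). The clock-driven factors Dbp and Tef peaked at CT11.2 and CT12.9, with log2 spans of 6.63 and 2.56, and Nfil3, which binds the same sites as a repressor, at CT22.6 (4.28-fold). The other 9, Nr1i2 (PXR), Nr1i3 (CAR), Ahr, Arnt, Rxra, Hnf4a, Nr0b2, Cebpa and Hlf, had adjusted p-values of 0.0614 to 0.826. The receptor of Cyp2b10, Nr1i3, ranged over 11.3 to 24.5 CPM, with its highest value in CT16 replicate 1 and 22.1 in CT16 replicate 2.

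The second comparison, of differences among the 7 time points without assuming a cosine, called 8 of the 55 members, against 7.08% of all transcripts (1225). All 8, which were Cyp2a4, Cyp2a5, Cyp2b10, Cyp2e1, Cyp2u1, Cyp3a59, Cyp4a10 and Cyp4a14, had also passed the cosine fit. Their adjusted p-values ran from 1.81e-05 for Cyp2a5 to 0.0193 for Cyp2e1. Both tests used the same libraries and are not independent of each other.

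The third comparison set CT24 against CT0, the same clock time on consecutive days. It called 0 of the 55 members and 0% of all transcripts with edgeR. At an unadjusted p under 0.05, 7 members passed, Cyp1a2, Cyp2c37, Cyp2c40, Cyp2c55, Cyp2j5, Cyp3a11 and Cyp3a59, as did 5.05% of all. In Cyp3a59 both mice of CT24 were above both of CT0, 6.05 and 7.57 against 4.96 and 4.25 CPM. In Cyp4a10 and Cyp4a14 the 2 mice of CT24 spanned a wider range than those of CT0, and their differences between CT24 and CT0 on the log2 scale were -0.41 and -0.48.

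Footprints on the 5′UTR relative to the CDS gave a readout that needs no scaling between libraries. Members had 2.60% of their reads in the 5′UTR, 97.3% in the CDS and 0.0968% in the 3′UTR, against 7.39%, 92.3% and 0.299% over all transcripts. In 18 members both regions averaged 10 or more counts. The median of the log2 ratio, 5′UTR over CDS, was -4.63, and -3.43 over all 7640 transcripts tested. The lowest ratio was that of Cyp1a2, -7.64 ± 0.50, and the highest that of Cyp2d22, -3.48 ± 0.30 (SD, n = 14), and their 5′UTRs are 60 and 250 nt long. For a rhythm of this ratio limma called 0 of the 18 members and 0% of all, and at an unadjusted p under 0.05 there were 0 members and 4.93% of all. Among the rhythmic members Cyp2e1, Cyp2u1, Cyp4a10 and Cyp4f14 had ratios of -6.30, -3.55, -4.89 and -5.16, with adjusted p-values of 0.977, 0.991, 0.881 and 0.835 for a rhythm.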

How the data were processed

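The authors deposited, for each of 14 libraries, unnormalized counts of reads for each region (CDS and both UTRs) and the region lengths of 28167 transcripts from RefSeq. By the methods of the study, adapters were clipped, rRNA reads removed with Bowtie 2.1.0.0, the rest aligned to mm10 and exact matches kept with samtools 0.1.19.0; reads of 26 to 32 nt were assigned to an A site. Profiles were made from reads with a single genomic alignment; the methods do not say so of the count tables themselves. The labels place a second run of CT16 replicate 2 in the file of the first, and it was not used separately.

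Counts of the 3 regions were added. Symbols were found for 27840 transcripts. edgeR 4.0.16 (R 4.3.3) gave TMM factors, CPM and quasi-likelihood F tests of the cosine and sine of a 24 h period, of the 7 time points and of CT24 against CT0, over the 17299 transcripts that averaged 10 or more counts, Benjamini-Hochberg adjusted. limma 3.58.1 tested log2((5′UTR + 0.5)/(CDS + 0.5)). Density is CDS CPM per kilobase. The fits were tested on simulated data. Alternatives were other scalings, filters and left-out libraries, DESeq2 1.42.0, and JTK_CYCLE with a 24 h period and lags every 2 h. Total counts limit precision to counting error plus the spread of 2 mice. Members and lists were chosen with earlier results of these data known. Values per library are given for members past the cosine threshold, the 8 highest densities and listed receptor targets; Cyp2b9, Por, Alas1 and Cyb5b were added after their values were seen. A listed regulator is not reported here and is not counted in the list.

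Sequences came from RefSeq on GRCm38.p6, with Python 3.11.15 and pysam 0.24.0. CDS lengths in the counts exceeded the reference by 1 nt per coding exon in 73 of 74 members. Identity was computed on coding nucleotides, in place of the protein identity planned. Same-numbered replicates were not treated as pairs, as no label says they share anything.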

Additional observations from a re-analysis of the deposited data

How the results depend on the processing

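The number of rhythmic members was 11, and leaving out 1 library gave 5 to 14: 5 without CT4 replicate 2 or CT8 replicate 2, 6 without CT0 replicate 2 or CT8 replicate 1, 7 without CT4 replicate 1 or either CT12 library, and 14 without CT20 replicate 1, which held the same 11 and 3 more. Leaving out both libraries of CT0, CT4, CT8 or CT12 gave 5 each (9.09%), against 8.13%, 7.55%, 6.69% and 6.09% of all transcripts, and of CT24 7 against 10.2%. Without those of CT16 or CT20 there were 10 and 13, against 8.51% and 11.3%. JTK_CYCLE, the rank test of the study, gave 2 at a false discovery rate of 0.05 on TMM-scaled CPM (Cyp2a5 and Cyp3a59) and 0 on CPM scaled by the total count, against 637 (3.68%) and 385 (2.23%) of all transcripts; at its adjusted P of 0.05, without that correction, it gave 8 and 10 members, against 17.8% and 22.2% of all transcripts. On TMM-scaled CPM its false discovery rate was 0.0572 for Cyp4f14 and Cyp4f17, 0.0776 for Cyp2a4 and Cyp2u1, 0.127 for Cyp2e1 and 0.545 for Cyp2b10 and Cyp2c37. The cause of these changes was not tested. Other scalings, count minimums, CDS reads only, 1 transcript per gene, counts without Mup transcripts, CT16 replicate 2 divided by 2 and DESeq2 gave 8 to 12. The share of all transcripts moved too. It was 8.24% with the total count, where 8 of 55 members passed, and 16.7% with a mean of at least 100 counts, where 10 of 42 passed. The number that differed among the 7 time points was 16 in place of 8 when every transcript with at least 1 count over all libraries together was tested, which took in 69 members, and 6 to 10 without 1 library. The counts of 0 for CT24 against CT0 and for the ratio of 5′UTR to CDS stayed 0 in every alternative run. The 8 members of highest density were the same 8 under each of 3 other definitions of the level.

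With the replicate number as a block, 11 members were rhythmic, against 11.1% of all transcripts. With it, 8 members differed among the 7 time points, and 0 and 0 passed the other tests. Deviations of same-numbered libraries from their time point correlated at -0.12 to 0.50 over 21 pairs of time points. The median was 0.17, and 13 of them were above 0.1. What such libraries may share was not tested. The numbers were not taken as a pairing because no label gives one. With 2 mice per time point and 24 h sampled once, a rhythm cannot be told apart from a change that would not recur, and levels of genes with many shared windows may be too low.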
